A study of Homo sapiens with 24 samples.

Results

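The transcripts described here are those of 33 genes that defend cells against peroxides and keep thiols reduced, chosen by name from a list of NRF2 regulators, glutathione, thioredoxin and peroxide-removing genes and NNT. Gene symbols were matched to the identifiers of both deposited tables, and all 33 were found among 63241 gene entries of the untreated and 36741 of the MPP+ table. Each reached 1 TPM in at least 3 libraries of both tables, so none was lost to the filter on low values. TPM, the deposited unit, is transcript abundance per length, scaled so that every library has the same total. RNA was sequenced in 24 libraries of human cells labelled SH-SY5Y, a neuroblastoma line used as a model of dopamine neurons, with 3 libraries in each of 8 groups. MCART1 was either knocked down with a short hairpin (shMCART1, with shScramble, a scrambled sequence, as the control) or overexpressed (oeMCART1, with oeNC as the control). MCART1 is the older name of SLC25A51, the carrier that brings NAD+ into the mitochondrial matrix. Each construct was sampled untreated and after 0.5 mM MPP+ for 24 h, a toxin that blocks respiratory complex I, and all 8 groups shared the same growth medium with serum and antibiotics. The labels give neither the hairpin sequence, nor the vectors, nor whether a line was a single clone.

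NRF2, the product of NFE2L2, is a transcription factor that KEAP1 holds for ubiquitin ligation by CUL3 and that, when KEAP1 cysteines are modified, pairs with a small MAF protein at antioxidant response elements. Its classic targets include HMOX1, NQO1, both subunits of glutamate-cysteine ligase (GCLC and GCLM), TXNRD1 and SRXN1. Glutathione and thioredoxin then carry electrons from NADPH to peroxides and oxidised protein thiols, in the cytosol and, through TXN2, TXNRD2, PRDX3 and glutathione reductase, in mitochondria. NNT, in the inner mitochondrial membrane, makes matrix NADPH from NADH, so that it stands where the NAD pool meets the antioxidant enzymes. Loss of reduced glutathione in the substantia nigra is a known feature of Parkinson's disease, of which MPP+ is a cell model.

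SLC25A51, the labelled target, was lower with the hairpin and higher with the overexpression construct in both tables. It was 10.5, 11.1 and 11.2 TPM in shScramble and 6.91, 9.45 and 5.47 TPM in shMCART1 (-0.56 ± 0.14 SE, adjusted p = 0.0195), and with MPP+ it went from 7.91 ± 0.899 to 5.33 ± 0.423 TPM (-0.49 ± 0.09 SE, adjusted p = 0.00239). In oeMCART1 it rose from 31.6 ± 3.48 to 683 ± 12.3 TPM untreated and from 8.49 ± 0.837 to 936 ± 68.96 TPM with MPP+ (log2 changes 4.39 and 6.63), and in the untreated oeNC libraries it lay above every shScramble library. The SLC25A51 call ended in the untreated knockdown without shMCART1 replicate 1 or 3 or shScramble replicate 2 (-0.55 to -0.39, adjusted p = 0.0514 to 0.0805). Markers of the line went against its label: of 12 adrenergic neuroblastoma genes, 5 were under 1 TPM in every untreated library, TH reached at most 0.04 TPM and DBH at most 0.07 TPM, and 1, GATA2, was at 10 TPM or more in every library. PHOX2A and DBH were not analysed with MPP+. The summed adrenergic markers ranged over single libraries from 42.8 to 51.5 TPM untreated and from 30.8 to 42.2 TPM with MPP+. Of 12 mesenchymal markers VIM was high (300.5 to 629 TPM) and CD44 at most 1.08 TPM, and of 12 blood markers, checked because the tissue label is bone marrow, 9 were under 1 TPM in every untreated library. The growth protocol names HEK293T cells beside SH-SY5Y, so the libraries are called here by their construct labels only. Between 13022 and 14306 genes reached 1 TPM per library, fewest in shMCART1 replicate 3, and the depth behind the TPM is unknown. The labels do not tell if the 3 libraries of a group came from separate cultures, and p-values cover the spread between deposited libraries only. The 33 transcripts summed to between 0.583% (oeNC with MPP+) and 0.763% (shMCART1) of group mean TPM, while the 13 mRNAs of mitochondrial DNA took 4.44 to 8.70% in untreated and 0.285 to 0.724% in MPP+ groups.

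Short stretches of DNA show where the core of the antioxidant response element, TGACNNNGC, lies beside members of the set. The core was searched on both strands from 250 bases before to 50 after each start site in RefSeq promoters (GRCh38.p14), a table that covers 25 of the 33 genes. It occurred at 4 of them, GCLM, KEAP1, GSTP1 and TXNRD1, or in 5 of 39 member promoters (12.8%), beside 13.3% of all 35116 promoters, so by these letters and this window the members held it no more often than promoters at large. The stretches are printed 5′ to 3′ on the strand of the gene with the core, or its reverse complement, in capitals. They are shown because GCLM, TXNRD1 and KEAP1 are members whose levels are followed below in every library.
GCLM (chr1:93909446-93909474, minus strand): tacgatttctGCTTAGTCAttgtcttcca
KEAP1 (chr19:10502784-10502812, minus strand): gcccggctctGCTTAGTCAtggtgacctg
GSTP1 (chr11:67583736-67583764, plus strand): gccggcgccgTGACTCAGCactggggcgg
TXNRD1, upstream promoter (chr12:104215670-104215698, plus strand): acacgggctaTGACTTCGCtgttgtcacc
TXNRD1, downstream promoter (chr12:104286920-104286948, plus strand): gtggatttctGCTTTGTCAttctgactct
The capitals are the same 9 letters in GCLM and in the KEAP1 stretch shown. Of 7 matches 5 are printed, 1 for each promoter, leaving out another in the KEAP1 promoter and another in the upstream TXNRD1 promoter. A match is a description of the letters and shows no binding, and 4 genes are too few to set their changes against those of the other members.

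Changes were tested between each construct and its control within a table, on log2(TPM + 1), with limma and Benjamini-Hochberg adjustment over all genes. A gene with an adjusted p under 0.05 is called, and every adjusted p below comes from that test. In untreated shMCART1, 13 of the 33 members fell and 5 rose against shScramble, led downward by NFE2L2, GGCT, NNT, GPX8, GCLC and PRDX3 and upward by HMOX1. Of all 14703 genes tested 34.2% were called there (25.6% lower, 8.64% higher). In untreated oeMCART1 14 members rose and 10 fell against oeNC, with NFE2L2, TXNRD1, NNT, GPX8, PRDX3 and GCLC highest, where 48.2% of all genes were called (33.5% higher, 14.7% lower). With MPP+, 13 members fell and 6 rose in shMCART1, led by GGCT, NQO1 and GLRX5 downward, beside 33.1% of 14895 genes called (22.2% lower, 10.8% higher). With MPP+ in oeMCART1 17 rose and 4 fell, led by NFE2L2, GCLM and GCLC, beside 60.9% of all genes called (46.7% higher, 14.2% lower). The members' share was above the background in the first 3 comparisons (54.5%, 72.7% and 57.6%) and close to it in the last (63.6%), and their median changes were -0.11, 0.13, -0.17 and 0.19 on the log2 scale, beside -0.15, 0.16, -0.08 and 0.26 for all genes. Their median absolute changes were 0.31, 0.38, 0.22 and 0.28, beside 0.31, 0.35, 0.22 and 0.39 for all genes. With a filter of 5 TPM, 20, 24, 19 and 22 members were called. Of all genes, 4571 and 5972 of 9974 were then called untreated, and 4224 and 6806 of 9641 with MPP+. Whether the members' higher share goes with their expression level was not tested. Groups did not overlap for 6 members higher and 13 lower in the untreated knockdown (48.6% of all genes did not overlap there), 15 and 12 in untreated overexpression (62.4%), 9 and 15 in the knockdown with MPP+ (49.5%) and 17 and 4 in overexpression with MPP+ (64%). Because bulk RNA was measured, fewer cells that express a gene and less of its RNA per cell cannot be told apart.

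**Figure D1:**
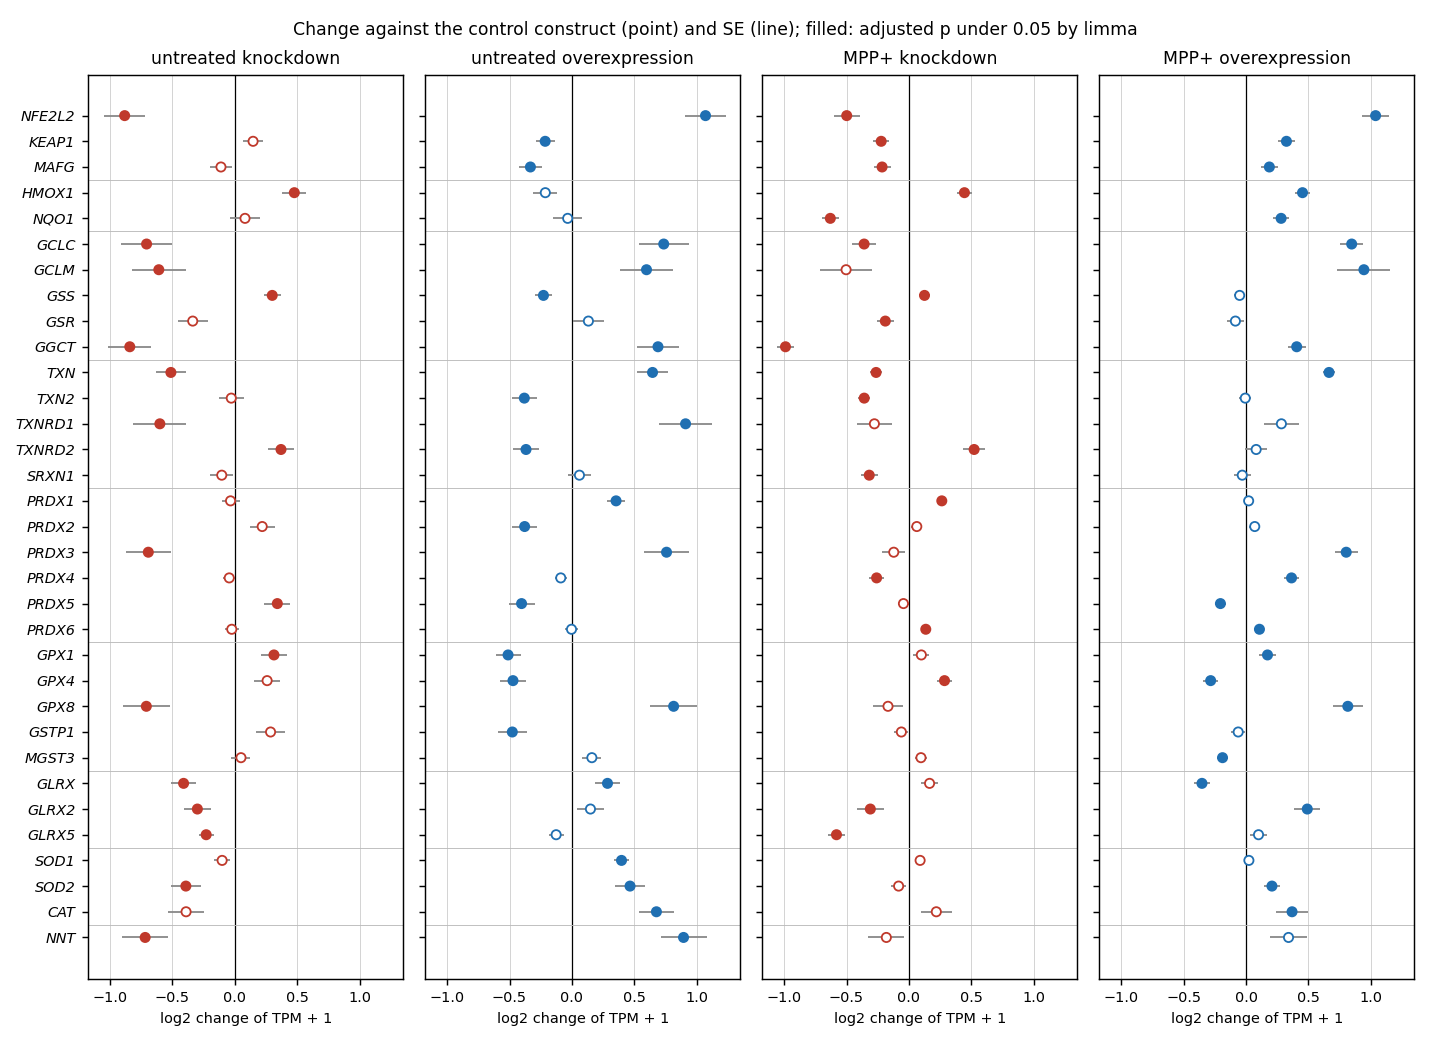
Change of each of the 33 transcripts (log2 of TPM + 1, construct minus its control; points, with SE as lines, 3 libraries per group) in the 4 comparisons, grouped by role from NFE2L2 down to NNT, filled where limma's adjusted p was under 0.05. NFE2L2 lies at -0.88 and -0.50 in both knockdown panels and at 1.07 and 1.04 in both overexpression panels.

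Among the members called, the untreated comparisons were close to mirror images. Called in both were 15 members, 15 of the 18 called in the knockdown and 15 of the 24 called with overexpression, and 0 of them moved in the same direction. How many of all genes did so was not counted, but their median changes were opposite too (-0.15 and 0.16). The mirror image is therefore not shown to be particular to the members. The hairpin and overexpression comparisons share no libraries, though they share 1 estimate of the spread. In both, changes also followed the GC content of the transcript: over all genes Spearman's rho was 0.776 in the knockdown and -0.801 with overexpression (14242 genes), and over the 33 members 0.832 and -0.840, across genes that share libraries. With MPP+ rho was 0.483 and -0.603 over all genes (14013 genes) and 0.421 and -0.588 over the members. Removing each library's trend on GC content left 2 higher and 3 lower members in the untreated knockdown and 4 higher and 8 lower with overexpression. With MPP+ it left 11 higher and 11 lower in the knockdown and 7 higher and 10 lower in overexpression. Of all genes 1240 and 2315 of 14242 were then called untreated, and 3874 and 6639 of 14013 with MPP+.

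**Figure D2:**
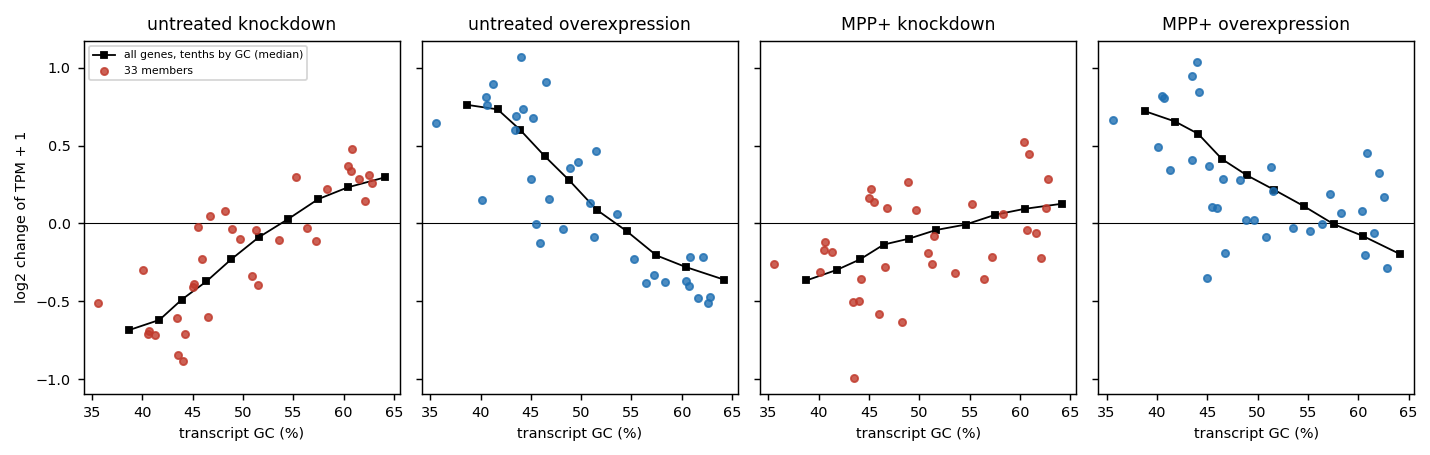
Change of the 33 transcripts (coloured points, log2 of TPM + 1) against transcript GC content, with the median change of all genes in 10 bins of GC content (black squares), in the 4 comparisons. Members follow the line of all genes upward in the untreated knockdown (rho 0.832) and downward in the untreated overexpression (rho -0.840), while with MPP+ rho was 0.421 and -0.588.

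Scaling moved the split as well. Median-of-ratios scaling shifted the median of all genes from -0.15 to 0.02 in the untreated knockdown, from 0.16 to -0.02 in untreated overexpression, from -0.08 to 0.01 in the knockdown with MPP+ and from 0.26 to -0.01 in overexpression with MPP+. Members called higher and lower were then 8 and 7, 10 and 14, 11 and 8, and 6 and 15 in that order of comparisons. Under quantile normalization they were 5 and 10, 12 and 13, 8 and 9, and 10 and 10. Of all genes, median-of-ratios scaling called 5911 and 7662 of 14703 untreated and 4826 and 8291 of 14895 with MPP+. Quantile normalization called 5486 and 7725 untreated and 4852 and 8077 with MPP+. Calls that kept their direction and an adjusted p under 0.05 under both scalings and with GC trends removed are named scale-stable below. How many calls of all genes were scale-stable was not counted. The counts of members therefore do not tell if members were more or less stable than other genes. In the untreated knockdown these were NFE2L2 and GGCT (lower) and GSS (higher), 3 of 18. In untreated overexpression they were 7 of 24: NFE2L2, TXNRD1 and SOD2 (higher) and GSS, TXN2, GPX1 and GPX4 (lower). In the knockdown with MPP+ they were 11 of 19: HMOX1, GSS, TXNRD2, PRDX1 and GPX4 (higher) and NFE2L2, NQO1, GGCT, TXN2, SRXN1 and GLRX5 (lower). In overexpression with MPP+ they were 4 of 21: NFE2L2 and GCLC (higher) and MGST3 and GLRX (lower). NFE2L2 is the member on all 4 lists. The untreated knockdown depended on single libraries: without shScramble replicate 2, 0 members were called by limma (17 at an unadjusted p under 0.05), without shMCART1 replicate 3, 4, and without shMCART1 replicate 2, 23. Of all genes 2 of 14611, 971 of 14619 and 7247 of 14595 were called in that order. A fit of the 2 groups alone called 0 members by limma (20 at an unadjusted p under 0.05) and 0 of all 14703 genes. Library weights called 29 members and 10110 of those genes.

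The regulators were led by NFE2L2 (ENSG00000116044, chr2:177230303-177264727; coordinates here and below from RefSeq, GRCh38.p14), whose mRNA was lower with the hairpin and higher with overexpression in both tables. Untreated, it was 10.9, 13.4 and 10.3 TPM in shScramble and 6.34, 7.13 and 4.18 TPM in shMCART1 (-0.88 ± 0.16 SE, adjusted p = 0.0139). In oeNC it was 6.65, 8.01 and 8.68 TPM and in oeMCART1 16.9, 17.7 and 17.5 TPM (1.07 ± 0.16 SE, adjusted p = 0.0041). In neither pair did the libraries overlap. With MPP+ the hairpin and scramble libraries were at 12.2, 11.7 and 11.6 TPM (shScramble) and 7.92, 7.83 and 8.5 TPM (shMCART1; -0.50 ± 0.11 SE, adjusted p = 0.00428). The overexpression libraries were at 6.9, 6.38 and 5.24 TPM (oeNC) and 15.96, 12.5 and 12.8 TPM (oeMCART1; 1.04 ± 0.11 SE, adjusted p = 7.86e-06). Again every library of one construct lay on one side of its control. With GC trends removed the 4 changes were smaller, -0.41, 0.49, -0.27 and 0.49, and stayed called. The control constructs also differed from each other in level, with shScramble above oeNC in every untreated and every MPP+ library.

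KEAP1 (ENSG00000079999, chr19:10486125-10503356), the sensor that marks NRF2 for breakdown, moved less. It was 51.9, 54.9 and 59.8 TPM in shScramble and 63.1, 56.7 and 64.8 TPM in shMCART1, which overlapped (0.15 ± 0.08 SE, adjusted p = 0.153). In oeNC it was 58.7, 60.6 and 58.6 TPM and in oeMCART1 50.7, 49.5 and 52.8 TPM, a fall without overlap (-0.21 ± 0.08 SE, adjusted p = 0.039) that turned to 0.079 with GC trends removed. In the MPP+ table it was 42.5, 42.2 and 44.8 TPM in shScramble and 35.5, 38.8 and 36.3 TPM in shMCART1 (-0.22 ± 0.06 SE, adjusted p = 0.0212). KEAP1 thus lay lower in each hairpin library than in each scramble library once MPP+ was present, but both scalings ended that call (-0.11 under median of ratios). In oeNC with MPP+ it was 38.4, 36.6 and 43.3 TPM and in oeMCART1 48.1, 48.8 and 51.6 TPM (0.32 ± 0.06 SE, adjusted p = 0.00104), a rise that median-of-ratios scaling reduced to 0.0018 and GC removal left at 0.47. MAFG, a small MAF partner of NRF2, fell in untreated oeMCART1 (-0.33, adjusted p = 0.0127; -0.19 and not called with GC trends removed) and in shMCART1 with MPP+ (-0.22, adjusted p = 0.03; -0.11 and not called under median-of-ratios scaling). It rose in oeMCART1 with MPP+ (0.19, adjusted p = 0.0313), where median-of-ratios scaling gave -0.12. The NFE2L2 call ended in the untreated knockdown without shScramble replicate 2 (-0.78, adjusted p = 0.0738). The KEAP1 call ended in the untreated overexpression without any one of the 6 libraries (-0.24 to -0.19, adjusted p = 0.0635 to 0.119) and in the knockdown with MPP+ without shMCART1 replicate 1 or 3 or shScramble replicate 3 (-0.21 to -0.20, adjusted p = 0.055 to 0.0784). The MAFG call ended in the knockdown with MPP+ without shMCART1 replicate 1 or shScramble replicate 2 or 3 (-0.24 to -0.16, adjusted p = 0.0539 to 0.122) and in the overexpression with MPP+ without any one oeMCART1 library or oeNC replicate 2 or 3 (0.18 to 0.19, adjusted p = 0.0609 to 0.0716).

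**Figure D3:**
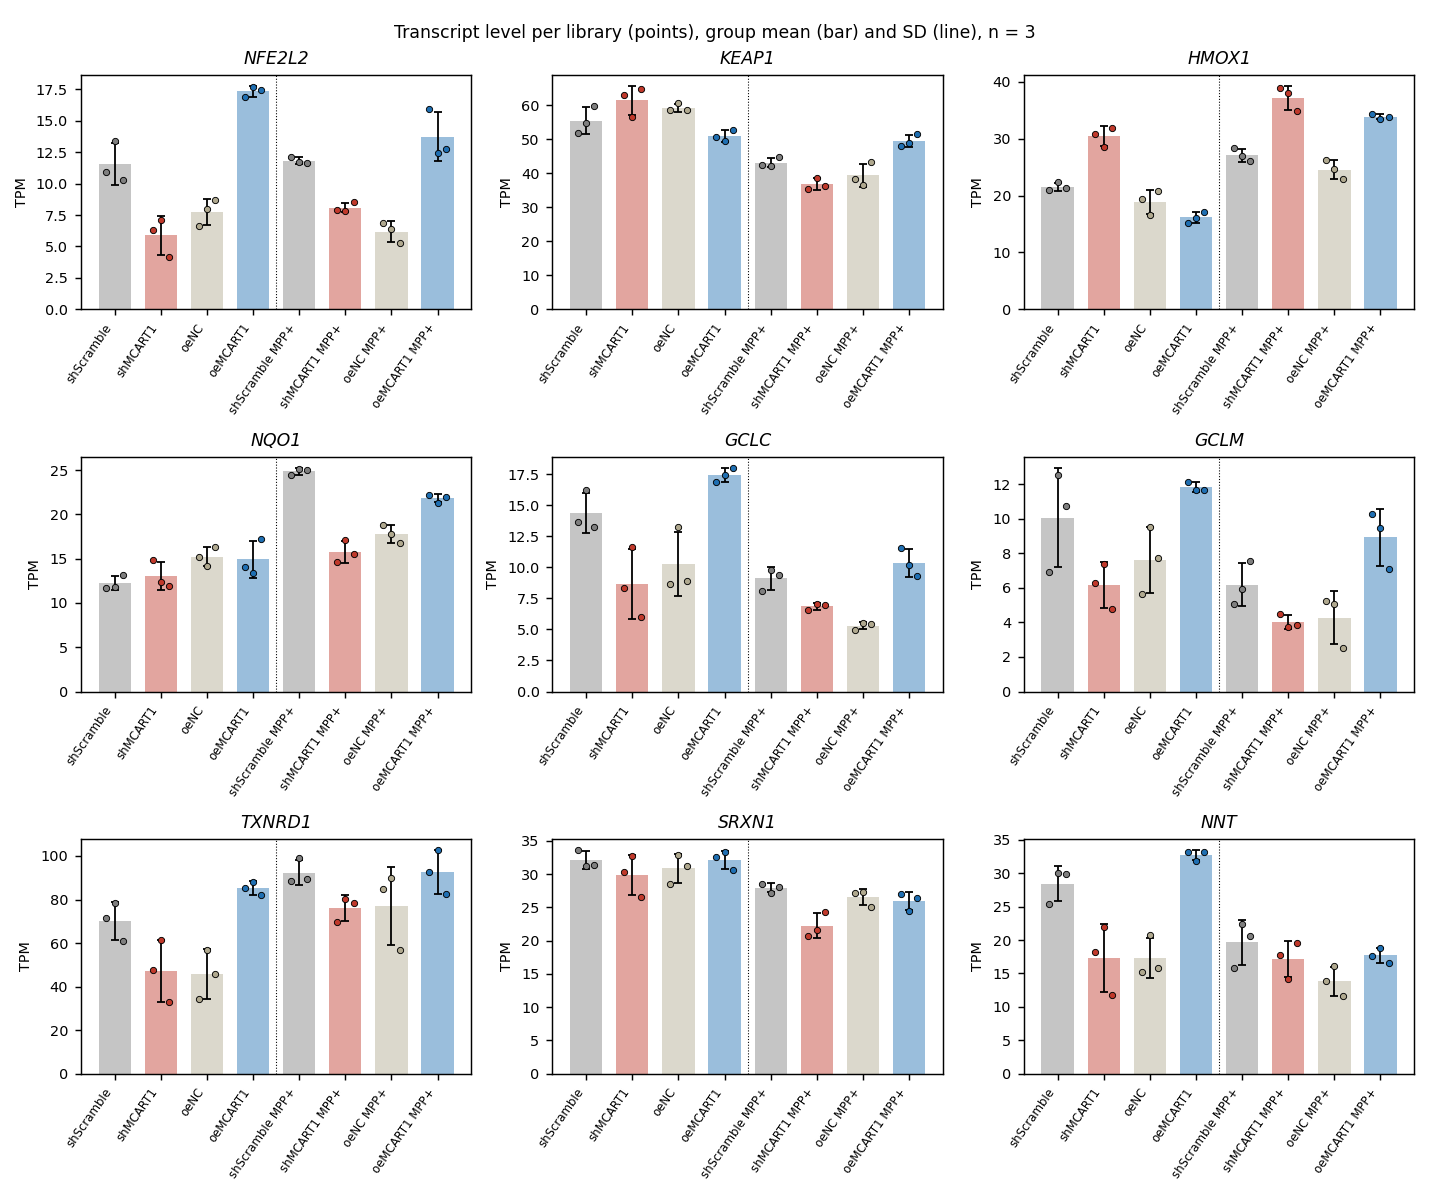
TPM of 9 transcripts in the 24 libraries (points), with group means (bars) and SD (lines, n = 3), untreated to the left and MPP+ to the right of the dotted line. NFE2L2 is higher in oeMCART1 than in oeNC on both sides, HMOX1 is higher in shMCART1 than in shScramble on both sides, and NQO1 is highest in shScramble with MPP+.

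HMOX1 (ENSG00000100292, chr22:35381096-35394207), which opens the haem ring and is a marker of NRF2 activity, did not follow the NFE2L2 mRNA in the hairpin cells. It was 20.99, 22.3 and 21.4 TPM in shScramble and 30.9, 28.5 and 31.9 TPM in shMCART1 (0.48 ± 0.10 SE, adjusted p = 0.0144), higher in every knockdown library. Under MPP+ it was 28.3, 26.9 and 26.01 TPM in shScramble and 38.8, 37.97 and 34.8 TPM in shMCART1 (0.44 ± 0.06 SE, adjusted p = 0.000527). The rise with MPP+ was scale-stable (0.35 with GC trends removed), and the untreated one was not called after GC removal (0.25). In oeNC it was 19.3, 16.7 and 20.8 TPM and in oeMCART1 15.2, 16.1 and 17.1 TPM, which overlapped (-0.21 ± 0.10 SE, adjusted p = 0.0832). After MPP+ it was 26.2, 24.6 and 22.8 TPM in oeNC and 34.3, 33.5 and 33.9 TPM in oeMCART1 (0.45 ± 0.06 SE, adjusted p = 7.62e-05). Under MPP+, HMOX1 was therefore higher with less and with more SLC25A51 RNA, though median-of-ratios scaling ended the overexpression call (0.13). Of the 12 members called in both MPP+ comparisons it was 1 of 2 with the same direction, the other being PRDX6. That share was not counted over all genes.

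NQO1 (ENSG00000181019, chr16:69709401-69726560), a flavoprotein that reduces quinones with NADPH or NADH, differed between constructs in the MPP+ table. Untreated, it was 11.7, 11.8 and 13.1 TPM in shScramble and 14.9, 12.3 and 11.9 TPM in shMCART1 (0.081 ± 0.12 SE, adjusted p = 0.601). In oeNC it was 15.2, 14.2 and 16.4 TPM and in oeMCART1 14.1, 13.4 and 17.3 TPM (-0.034 ± 0.12 SE, adjusted p = 0.829). Both untreated pairs overlapped. With MPP+ it was 24.4, 25.1 and 25.1 TPM in shScramble and 14.6, 17.1 and 15.5 TPM in shMCART1, which is 63.3% of the shScramble mean (-0.63 ± 0.07 SE, adjusted p = 0.000112). That fall was scale-stable (-0.54 with GC trends removed) and kept its call whichever library was left out. The 3 shScramble libraries with MPP+ had more NQO1 than any of the other 21. In oeNC with MPP+ it was 18.8, 17.8 and 16.8 TPM and in oeMCART1 22.2, 21.3 and 22.0 TPM (0.28 ± 0.07 SE, adjusted p = 0.00289), a rise that turned to -0.032 under median-of-ratios scaling and -0.036 with GC trends removed. The HMOX1 call ended in the untreated knockdown without shScramble replicate 2 (0.50, adjusted p = 0.0738).

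Among the 5 genes of glutathione synthesis and recycling, GCLC and GGCT were called in all 4 comparisons, lower with the hairpin and higher with overexpression, except that GC removal turned GGCT to -0.17 in overexpression with MPP+. GCLC (ENSG00000001084, chr6:53497341-53545101), the catalytic subunit of the rate-limiting ligase, was 13.7, 16.2 and 13.2 TPM in shScramble and 8.32, 11.6 and 5.99 TPM in shMCART1 (-0.71 ± 0.20 SE, adjusted p = 0.0245). In oeNC it was 8.64, 13.2 and 8.88 TPM and in oeMCART1 16.9, 17.4 and 17.99 TPM (0.73 ± 0.20 SE, adjusted p = 0.0129). Neither pair overlapped, and neither call held after GC removal (-0.24 and 0.17). In the MPP+ table it was 8.09, 9.79 and 9.41 TPM in shScramble and 6.53, 7.03 and 7.0 TPM in shMCART1 (-0.36 ± 0.09 SE, adjusted p = 0.0122; -0.13 and not called with GC trends removed). It was 4.97, 5.48 and 5.42 TPM in oeNC and 11.5, 10.2 and 9.31 TPM in oeMCART1 (0.85 ± 0.09 SE, adjusted p = 1.39e-05). The last of these, 195% of the control mean, was the GCLC call that was scale-stable (0.31 with GC trends removed).

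GCLM (ENSG00000023909, chr1:93885199-93909430), is the modifier subunit of the same ligase. It was 6.91, 12.5 and 10.8 TPM in shScramble and 6.28, 7.4 and 4.79 TPM in shMCART1, which overlapped (-0.61 ± 0.21 SE, adjusted p = 0.0463), and the call ended under both scalings and GC removal (-0.11). It was 5.66, 9.49 and 7.71 TPM in oeNC and 12.1, 11.7 and 11.7 TPM in oeMCART1 (0.60 ± 0.21 SE, adjusted p = 0.0377), a change of -0.016 with GC trends removed. The untreated rise of GCLM was thus lost with the GC trend. Under MPP+ it was 5.07, 5.95 and 7.53 TPM in shScramble and 4.48, 3.76 and 3.84 TPM in shMCART1, apart but not called (-0.50 ± 0.21 SE, adjusted p = 0.0887). It was 5.26, 5.06 and 2.52 TPM in oeNC and 10.3, 9.45 and 7.08 TPM in oeMCART1 (0.94 ± 0.21 SE, adjusted p = 0.00217). Both ligase subunits were thus higher in oeMCART1 under MPP+, GCLM at 209% of its control mean, but GC removal ended the GCLM call (0.37).

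GGCT, gamma-glutamylcyclotransferase, which acts on gamma-glutamyl dipeptides of the glutathione cycle, showed the largest fall of any member with MPP+ in the hairpin comparison. Untreated, it was 81.4, 97.8 and 82.6 TPM in shScramble and 48.5, 61.5 and 37.2 TPM in shMCART1 (-0.84 ± 0.17 SE, adjusted p = 0.0144). After MPP+ it was 92.9, 95.3 and 104 TPM in shScramble and 44.9, 48.6 and 52.2 TPM in shMCART1, 49.9% of the control mean (-0.99 ± 0.07 SE, adjusted p = 1.86e-05). Both falls were scale-stable, at -0.34 and -0.74 with GC trends removed. In oeMCART1 it rose untreated (0.69, adjusted p = 0.00873) and with MPP+ (0.41, adjusted p = 0.000403), and with GC trends removed the untreated change was 0.08 and not called. Summed over the 5 genes, the level was 236 ± 7.59 TPM in shScramble, 194 ± 22.5 in shMCART1, 189 ± 20.5 in oeNC and 233 ± 1.499 in oeMCART1 (SD, n = 3). GSS, which adds glycine to complete glutathione, went the other way from the ligase subunits. It rose in shMCART1 untreated (0.30, adjusted p = 0.0156) and with MPP+ (0.12, adjusted p = 0.0423), and fell in untreated oeMCART1 (-0.23, adjusted p = 0.0179), all 3 scale-stable, while oeMCART1 with MPP+ differed from its control by -0.051, adjusted p = 0.321. GSR, glutathione reductase, fell in shMCART1 with MPP+ (-0.19, adjusted p = 0.044), a call lost under both scalings and with GC trends removed. The GCLC call ended in the untreated knockdown without shMCART1 replicate 1 or 3 or shScramble replicate 2 (-0.70 to -0.50, adjusted p = 0.059 to 0.0991), in the untreated overexpression without oeNC replicate 1 or 3 (0.64 to 0.65, adjusted p = 0.0505 to 0.0556) and in the knockdown with MPP+ without shScramble replicate 2 (-0.31, adjusted p = 0.0549). The GCLM call ended in the untreated knockdown without shMCART1 replicate 1 or 3 or shScramble replicate 2 or 3 (-0.63 to -0.45, adjusted p = 0.086 to 0.178) and in the untreated overexpression without any one oeMCART1 library or oeNC replicate 1 or 3 (0.42 to 0.62, adjusted p = 0.0775 to 0.154). The GSS call ended in the untreated knockdown without shScramble replicate 2 (0.25, adjusted p = 0.0743), in the untreated overexpression without oeMCART1 replicate 1 or 3 or oeNC replicate 3 (-0.23 to -0.20, adjusted p = 0.051 to 0.0745) and in the knockdown with MPP+ without any one shMCART1 library or shScramble replicate 2 or 3 (0.092 to 0.14, adjusted p = 0.0709 to 0.167). The GSR call ended in the knockdown with MPP+ without shMCART1 replicate 1 or 2 or any one shScramble library (-0.21 to -0.16, adjusted p = 0.0522 to 0.147). The GGCT call ended in the untreated knockdown without shScramble replicate 2 (-0.76, adjusted p = 0.0743).

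In the thioredoxin system the cytosolic pair TXN and TXNRD1 and the mitochondrial TXNRD2 moved in opposite directions in the untreated cells, except that GC removal turned TXN to 0.13 in the knockdown and -0.027 with overexpression. TXN, the small dithiol protein that reduces peroxiredoxins, fell in shMCART1 untreated (-0.51, adjusted p = 0.0167) and with MPP+ (-0.26, adjusted p = 0.00156) and rose in untreated oeMCART1 (0.65, adjusted p = 0.00449). With MPP+ it was 476, 509 and 454 TPM in oeNC and 757, 756 and 767 TPM in oeMCART1 (0.66 ± 0.05 SE, adjusted p = 8.58e-07), the smallest adjusted p of any member in that comparison, yet 0.0028 with GC trends removed. TXN has the lowest transcript GC content of the 33, 35.6%.

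TXNRD1 (ENSG00000198431, chr12:104215779-104350307), the selenoprotein that reduces TXN with NADPH, was 71.7, 78.3 and 60.96 TPM in shScramble and 47.5, 61.3 and 32.9 TPM in shMCART1, which overlapped (-0.60 ± 0.21 SE, adjusted p = 0.0464), and the call ended under median-of-ratios scaling and GC removal (-0.27). It was 34.2, 56.96 and 46.02 TPM in oeNC and 85.2, 88.2 and 81.8 TPM in oeMCART1, without overlap (0.91 ± 0.21 SE, adjusted p = 0.00705). The latter was scale-stable (0.51 with GC trends removed). In the MPP+ table it was 88.7, 99.1 and 89.2 TPM in shScramble and 69.5, 80.3 and 78.4 TPM in shMCART1, apart but not called (-0.28 ± 0.14 SE, adjusted p = 0.159). It was 84.6, 89.9 and 56.8 TPM in oeNC and 92.4, 103 and 82.7 TPM in oeMCART1, which overlapped (0.28 ± 0.14 SE, adjusted p = 0.106). SRXN1 (ENSG00000271303, chr20:646615-653200), which repairs overoxidised peroxiredoxins, was called in 1 of the 4 comparisons. It was 33.6, 31.3 and 31.4 TPM in shScramble and 30.3, 32.7 and 26.6 TPM in shMCART1 (-0.11 ± 0.09 SE, adjusted p = 0.369). It was 28.6, 32.9 and 31.2 TPM in oeNC and 32.6, 33.3 and 30.7 TPM in oeMCART1 (0.06 ± 0.09 SE, adjusted p = 0.61). Both untreated pairs overlapped. Under MPP+ it was 28.6, 27.2 and 28.1 TPM in shScramble and 20.8, 21.6 and 24.4 TPM in shMCART1, a scale-stable fall (-0.32 ± 0.07 SE, adjusted p = 0.00454). It was 27.1, 27.3 and 25.1 TPM in oeNC and 26.9, 24.4 and 26.4 TPM in oeMCART1, which overlapped (-0.03 ± 0.07 SE, adjusted p = 0.721).

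Of the mitochondrial thioredoxin genes, TXNRD2, the matrix reductase, rose in shMCART1 untreated (0.37, adjusted p = 0.0254) and fell in untreated oeMCART1 (-0.37, adjusted p = 0.016), and neither call held after GC removal (0.15 and -0.11). After MPP+ it was 24.0, 22.3 and 25.4 TPM in shScramble and 31.7, 39.8 and 33.1 TPM in shMCART1, 146% of the control mean (0.52 ± 0.09 SE, adjusted p = 0.00122). That rise was scale-stable (0.44 with GC trends removed). TXN2, the matrix thioredoxin, fell in the same comparison (-0.36, adjusted p = 0.00039) and in untreated oeMCART1 (-0.38, adjusted p = 0.0113), both scale-stable. The matrix reductase and its substrate thus moved apart in shMCART1 with MPP+. The TXN call ended in the untreated knockdown without shMCART1 replicate 3 or shScramble replicate 2 (-0.40, adjusted p = 0.0584 to 0.08). The TXNRD1 call ended in the untreated knockdown without shMCART1 replicate 1 or 3 or any one shScramble library (-0.70 to -0.37, adjusted p = 0.0519 to 0.182). The TXNRD2 call ended in the untreated knockdown without shMCART1 replicate 1 or 3 or shScramble replicate 1 or 2 (0.26 to 0.39, adjusted p = 0.057 to 0.0995) and in the untreated overexpression without oeNC replicate 3 (-0.35, adjusted p = 0.0548).

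Peroxiredoxins reduce hydrogen peroxide with electrons from thioredoxin, and PRDX1 had the highest mean TPM, a level per length, of any member in 7 of the 8 groups (GSTP1 in oeNC with MPP+), at 773 to 1709 TPM over the 24 libraries. PRDX3, the mitochondrial peroxiredoxin, was 221, 273 and 220.4 TPM in shScramble and 157, 183 and 109 TPM in shMCART1 (-0.69 ± 0.18 SE, adjusted p = 0.0195). It was 148, 217 and 179 TPM in oeNC and 303, 311 and 298 TPM in oeMCART1 (0.76 ± 0.18 SE, adjusted p = 0.00735). These pairs did not overlap, but GC removal ended both calls (-0.089 and 0.04). With MPP+ it was 104, 113 and 88.8 TPM in oeNC and 184, 188 and 162 TPM in oeMCART1 (0.80 ± 0.09 SE, adjusted p = 1.68e-05), and 0.13 with GC trends removed. PRDX1, in the cytosol, rose in untreated oeMCART1 (0.35, adjusted p = 0.00511), a call lost under median-of-ratios scaling, and in shMCART1 with MPP+ (0.26, adjusted p = 0.000579), where it was scale-stable. PRDX4, of the endoplasmic reticulum, fell in shMCART1 (-0.26, adjusted p = 0.00751) and rose in oeMCART1 (0.36, adjusted p = 0.000287) with MPP+, but under median-of-ratios scaling the changes were -0.15 and 0.036 and not called. PRDX5, found in several compartments, rose in untreated shMCART1 (0.34, adjusted p = 0.0304) and fell in oeMCART1 untreated (-0.40, adjusted p = 0.0102) and with MPP+ (-0.20, adjusted p = 0.00261), and all 3 calls ended with GC trends removed. PRDX2 fell in untreated oeMCART1 (-0.38, adjusted p = 0.0108), also lost with GC trends removed. PRDX6, which uses glutathione, rose in shMCART1 (0.13, adjusted p = 0.0171) and oeMCART1 (0.11, adjusted p = 0.0259) with MPP+, the latter -0.22 under median-of-ratios scaling. The PRDX3 call ended in the untreated knockdown without shMCART1 replicate 3 or shScramble replicate 2 (-0.59 to -0.48, adjusted p = 0.0627 to 0.0888). The PRDX5 call ended in the untreated knockdown without shMCART1 replicate 1 or 3 or shScramble replicate 2 or 3 (0.23 to 0.35, adjusted p = 0.0527 to 0.116). The PRDX6 call ended in the knockdown with MPP+ without shMCART1 replicate 1 or shScramble replicate 2 (0.12, adjusted p = 0.0653 to 0.067) and in the overexpression with MPP+ without oeMCART1 replicate 1 or oeNC replicate 3 (0.074 to 0.091, adjusted p = 0.0916 to 0.0919).

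Of the glutathione peroxidases, GPX1 (cytosol and mitochondria) and GPX4 (lipid peroxides) fell in untreated oeMCART1, and GPX8, a membrane protein of the endoplasmic reticulum, rose. GPX8 was 12.8, 14.5 and 10.6 TPM in shScramble and 9.0, 8.48 and 4.98 TPM in shMCART1 (-0.71 ± 0.19 SE, adjusted p = 0.0215). It was 7.82, 10.3 and 7.56 TPM in oeNC and 15.3, 16.1 and 15.7 TPM in oeMCART1 (0.81 ± 0.19 SE, adjusted p = 0.00716). In the MPP+ table it was 9.3, 8.89 and 6.93 TPM in oeNC and 16.5, 14.2 and 15.5 TPM in oeMCART1 (0.82 ± 0.12 SE, adjusted p = 0.000109). No pair overlapped, and all 3 calls ended with GC trends removed (-0.10, 0.094 and 0.14). GPX1 fell in untreated oeMCART1 from 263 ± 22.5 to 184 ± 9.43 TPM (-0.51, adjusted p = 0.00472), which was scale-stable, and rose in untreated shMCART1 (0.31, adjusted p = 0.0348; 0.054 and not called with GC trends removed). In oeMCART1 with MPP+ GPX1 was called higher (0.17, adjusted p = 0.0366) with libraries that overlapped, and lay at -0.16 under median-of-ratios scaling. GPX4 fell in oeMCART1 untreated (-0.47, adjusted p = 0.00585) and with MPP+ (-0.28, adjusted p = 0.00112), and rose in shMCART1 with MPP+ from 435 ± 28.2 to 529.8 ± 17.04 TPM (0.28, adjusted p = 0.00341). The GPX4 calls were scale-stable except that in overexpression with MPP+. GSTP1, a transferase that couples glutathione to electrophiles, fell in untreated oeMCART1 (-0.48, adjusted p = 0.00845), lost with GC trends removed. MGST3, a microsomal transferase, fell in oeMCART1 with MPP+ from 121 ± 5.16 to 106 ± 1.702 TPM (-0.19, adjusted p = 0.0039), where it was scale-stable. The GPX1 call ended in the untreated knockdown without shMCART1 replicate 1 or 3 or shScramble replicate 1 or 2 (0.22 to 0.34, adjusted p = 0.0576 to 0.136) and in the overexpression with MPP+ without oeMCART1 replicate 2 or 3 or oeNC replicate 1 or 2 (0.11 to 0.17, adjusted p = 0.0837 to 0.155). The GPX8 call ended in the untreated knockdown without shMCART1 replicate 3 or shScramble replicate 2 (-0.61 to -0.48, adjusted p = 0.0659 to 0.0924).

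The 3 glutaredoxins, which remove glutathione from protein thiols or, for GLRX5, carry iron-sulfur clusters, all fell in untreated shMCART1 (-0.41 for GLRX, -0.30 for GLRX2 and -0.23 for GLRX5), but with GC trends removed they lay at 0.0082, 0.32 and 0.13. Their summed level was 239.6 ± 5.83 TPM in shScramble and 199 ± 5.85 in shMCART1 untreated, and 199 ± 11.6 and 150.4 ± 10.5 TPM with MPP+ (SD, n = 3). With MPP+ GLRX5, in mitochondria, was 134, 120.4 and 129.8 TPM in shScramble and 81.2, 82.3 and 92.5 TPM in shMCART1, 66.7% of the control mean (-0.58 ± 0.07 SE, adjusted p = 0.000197). That fall was scale-stable (-0.42 with GC trends removed). GLRX, in the cytosol, rose in untreated oeMCART1 (0.28, adjusted p = 0.0337), -0.23 with GC trends removed. It fell in oeMCART1 with MPP+ from 22.6 ± 0.165 to 17.5 ± 0.977 TPM (-0.35, adjusted p = 0.000749), a scale-stable call. GLRX2, mainly mitochondrial, fell in shMCART1 (-0.31, adjusted p = 0.0413) and rose in oeMCART1 (0.49, adjusted p = 0.00166) with MPP+, and GC removal turned both (0.019 and -0.19). The GLRX call ended in the untreated knockdown without shMCART1 replicate 3 or shScramble replicate 2 (-0.37 to -0.34, adjusted p = 0.0564 to 0.0795) and in the untreated overexpression without any one of the 6 libraries (0.23 to 0.32, adjusted p = 0.052 to 0.105). The GLRX2 call ended in the untreated knockdown without shMCART1 replicate 1 or 3 or any one shScramble library (-0.34 to -0.21, adjusted p = 0.0724 to 0.171) and in the knockdown with MPP+ without shMCART1 replicate 1 or 2 or shScramble replicate 1 or 3 (-0.33 to -0.22, adjusted p = 0.0659 to 0.164). The GLRX5 call ended in the untreated knockdown without shMCART1 replicate 3 or shScramble replicate 1 or 2 (-0.27 to -0.21, adjusted p = 0.0503 to 0.0738).

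SOD1, SOD2 and CAT, which dismutate superoxide in cytosol and mitochondria and break down hydrogen peroxide in peroxisomes, all rose in untreated oeMCART1. SOD2 rose from 64.3 ± 9.69 to 88.6 ± 4.15 TPM (0.47 ± 0.12 SE, adjusted p = 0.0106), CAT from 11.4 ± 1.66 to 18.8 ± 1.34 TPM (0.68 ± 0.14 SE, adjusted p = 0.00547) and SOD1 from 554 ± 22.5 to 729 ± 17.7 TPM (0.40 ± 0.06 SE, adjusted p = 0.0041). The SOD2 call was scale-stable, that of CAT ended with GC trends removed and that of SOD1 under median-of-ratios scaling. SOD2 fell in untreated shMCART1 (-0.39, adjusted p = 0.031), a call that median-of-ratios scaling ended (-0.19). With MPP+ none of these genes was called in the knockdown, and in oeMCART1 SOD2 (0.21, adjusted p = 0.012) and CAT (0.37, adjusted p = 0.0241) rose. Median-of-ratios scaling put SOD2 at -0.12, quantile normalization at -0.01, and GC removal put CAT at -0.12. The SOD2 call ended in the untreated knockdown without shMCART1 replicate 1 or 3 or shScramble replicate 2 or 3 (-0.40 to -0.29, adjusted p = 0.0563 to 0.12) and in the overexpression with MPP+ without oeNC replicate 2 (0.17, adjusted p = 0.0503). The CAT call ended in the overexpression with MPP+ without oeMCART1 replicate 1 or 2 or oeNC replicate 3 (0.20 to 0.36, adjusted p = 0.0584 to 0.0871).

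NNT (ENSG00000112992, chr5:43602675-43707396), the transhydrogenase that draws on matrix NADH for NADPH, was 25.4, 29.96 and 29.9 TPM in shScramble and 18.2, 21.99 and 11.8 TPM in shMCART1 (-0.72 ± 0.18 SE, adjusted p = 0.0194). In oeNC it was 15.3, 20.8 and 15.8 TPM and in oeMCART1 33.1, 31.8 and 33.1 TPM (0.89 ± 0.18 SE, adjusted p = 0.0052). The untreated levels of NNT were thus lower with the hairpin and higher with overexpression, without overlap, but GC removal ended both calls (-0.13 and 0.19), and NNT has a transcript GC content of 41.3%. Under MPP+ it was 15.8, 22.4 and 20.7 TPM in shScramble and 17.7, 14.2 and 19.6 TPM in shMCART1, which overlapped (-0.18 ± 0.14 SE, adjusted p = 0.365). It was 13.8, 16.1 and 11.7 TPM in oeNC and 17.6, 18.9 and 16.6 TPM in oeMCART1, apart but not called (0.34 ± 0.14 SE, adjusted p = 0.0597). The NNT call ended in the untreated knockdown without shMCART1 replicate 3 or shScramble replicate 2 (-0.68 to -0.48, adjusted p = 0.0537 to 0.0834).

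Whether the effect of a construct differed with MPP+ was tested as a difference of the 2 within-table effects, MPP+ minus untreated, over 15653 genes. For the knockdown 5 of 33 members were called, beside 3.87% of all genes (1.72% higher, 2.15% lower), and for overexpression 13 of 33, beside 17.8% (12.6% higher, 5.24% lower). The clearest knockdown difference was that of NQO1 (-0.71 ± 0.13 SE, adjusted p = 0.0063), whose hairpin effect was 0.081 untreated and -0.63 with MPP+. It was scale-stable and kept its call whichever library was left out. GLRX also differed (0.58 ± 0.12 SE, adjusted p = 0.00994), from -0.41 to 0.16, a call lost with GC trends removed (0.36). KEAP1 (-0.37, adjusted p = 0.0399), GLRX5 (-0.35, adjusted p = 0.0322) and PRDX1 (0.30, adjusted p = 0.0447) were called as well, all 3 lost under median-of-ratios scaling. The KEAP1 call ended in the knockdown difference without shMCART1 with MPP+ replicate 1 or 3, any one shScramble with MPP+ library, shMCART1 untreated replicate 1 or 3 or shScramble untreated replicate 1 or 2 (-0.38 to -0.32, adjusted p = 0.061 to 0.0997). The GLRX5 call ended in the knockdown difference without shMCART1 with MPP+ replicate 1 or 2, shScramble with MPP+ replicate 1 or 3, shMCART1 untreated replicate 1 or 3 or shScramble untreated replicate 2 (-0.34 to -0.32, adjusted p = 0.064 to 0.092). The PRDX1 call ended in the knockdown difference without any one shMCART1 with MPP+ library, any one shScramble with MPP+ library, shMCART1 untreated replicate 1 or 3 or shScramble untreated replicate 2 (0.23 to 0.32, adjusted p = 0.0682 to 0.121). Without untreated shMCART1 replicate 2 the count of members was 13, and over the other libraries left out it went as low as 2. Of all genes 2466 of 15606 were called without that replicate, and the lowest count over libraries left out was 265. NFE2L2 was not called (0.38 ± 0.20 SE, adjusted p = 0.256), nor was NNT (0.54 ± 0.25 SE, adjusted p = 0.202).

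For overexpression the largest differences were those of GPX1 (0.68 ± 0.12 SE, adjusted p = 0.000676), HMOX1 (0.67 ± 0.11 SE, adjusted p = 0.000337) and GLRX (-0.64 ± 0.12 SE, adjusted p = 0.000762). HMOX1 went from -0.21 untreated to 0.45 with MPP+, GPX1 from -0.51 to 0.17, and GLRX from 0.28 to -0.35. KEAP1 went from -0.21 to 0.32 (difference 0.54 ± 0.10 SE, adjusted p = 0.000706; 0.079 and 0.47 with GC trends removed) and MAFG from -0.33 to 0.19 (difference 0.52 ± 0.10 SE, adjusted p = 0.00139; -0.54 and -0.12 under median-of-ratios scaling). GPX1 was likewise negative in both tables under that scaling (-0.74 and -0.16). PRDX4 was also higher with MPP+ relative to untreated (0.45, adjusted p = 0.000394), and PRDX1 (-0.33, adjusted p = 0.00696) and SOD1 (-0.37, adjusted p = 0.000636) lower. The differences of these 8 were scale-stable and kept their calls whichever library was left out. Whether an effect switched sign depended on the scaling (MAFG, GPX1) or on GC removal (KEAP1, GLRX). With GC trends removed the GLRX effect was negative untreated as well. The untreated HMOX1 effect was not called, and median-of-ratios scaling ended its call with MPP+. The difference for NFE2L2 was -0.032 ± 0.20 SE, adjusted p = 0.944, with overexpression effects of 1.07 and 1.04, and that for NNT was -0.55 ± 0.25 SE, adjusted p = 0.136. PRDX2 (0.45, adjusted p = 0.00746), TXNRD2 (0.45, adjusted p = 0.0284), GSTP1 (0.42, adjusted p = 0.0396), TXN2 (0.38, adjusted p = 0.0257) and MGST3 (-0.35, adjusted p = 0.00715) were called but ended under at least one of the scalings or GC removal. The TXN2 call ended in the overexpression difference without oeMCART1 with MPP+ replicate 3, oeNC with MPP+ replicate 2, oeMCART1 untreated replicate 2 or oeNC untreated replicate 3 (0.33 to 0.35, adjusted p = 0.0608 to 0.0718). The TXNRD2 call ended in the overexpression difference without oeMCART1 with MPP+ replicate 3, oeNC with MPP+ replicate 1 or 2, oeMCART1 untreated replicate 1 or 2 or oeNC untreated replicate 3 (0.41 to 0.45, adjusted p = 0.0512 to 0.0752). The GSTP1 call ended in the overexpression difference without oeMCART1 with MPP+ replicate 2 or 3, oeNC with MPP+ replicate 1 or 2, any one oeMCART1 untreated library or oeNC untreated replicate 1 or 3 (0.35 to 0.42, adjusted p = 0.0627 to 0.103).

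MPP+ itself was not tested, because the tables were deposited and scaled separately and share 31524 identifiers, 49.8% of the untreated and 85.8% of the MPP+ entries, though these held 99.3% or more of the TPM of every library. Levels are therefore set side by side as ratios of group means. Over genes at 1 TPM or more on both sides the median ratio of MPP+ to untreated was 0.896 in shScramble, 0.972 in shMCART1, 0.852 in oeNC and 0.899 in oeMCART1, and over the members 0.865, 0.902, 0.859 and 0.944. All MPP+ libraries lay above all untreated ones for 6, 8, 5 and 9 members in that order of constructs (20.4%, 22.2%, 18.9% and 24.9% of those genes), and below for 16, 14, 17 and 18 (40.6%, 27.5%, 41.1% and 44.8%). HMOX1 and NQO1 were above 1 with every construct: HMOX1 at 1.26, 1.22, 1.295 and 2.098 in the same order. NQO1 was at 2.03 in shScramble, 1.21 in shMCART1, 1.17 in oeNC and 1.46 in oeMCART1, so the scramble control stood apart from the other 3. GSS (1.42 to 2.08) and TXNRD1 (1.09 to 1.69) were also above 1 throughout. Below 1 with every construct were 15 members, among them GCLC (0.516 to 0.792), GCLM (0.562 to 0.755), GSR (0.601 to 0.7) and PRDX1 (0.499 to 0.692). The NRF2 targets thus did not share 1 direction between the tables. The peroxiredoxins together had 3272 ± 96.2 to 3502 ± 116 TPM in untreated groups and 2276 ± 44.4 to 2497 ± 25.3 TPM with MPP+. NFE2L2 was at 1.03, 1.37, 0.793 and 0.792, and KEAP1 at 0.777, 0.599, 0.665 and 0.971. The share of mitochondrial mRNAs differed between the tables in the same comparison, and its part in these ratios was not tested.

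**Figure D4:**
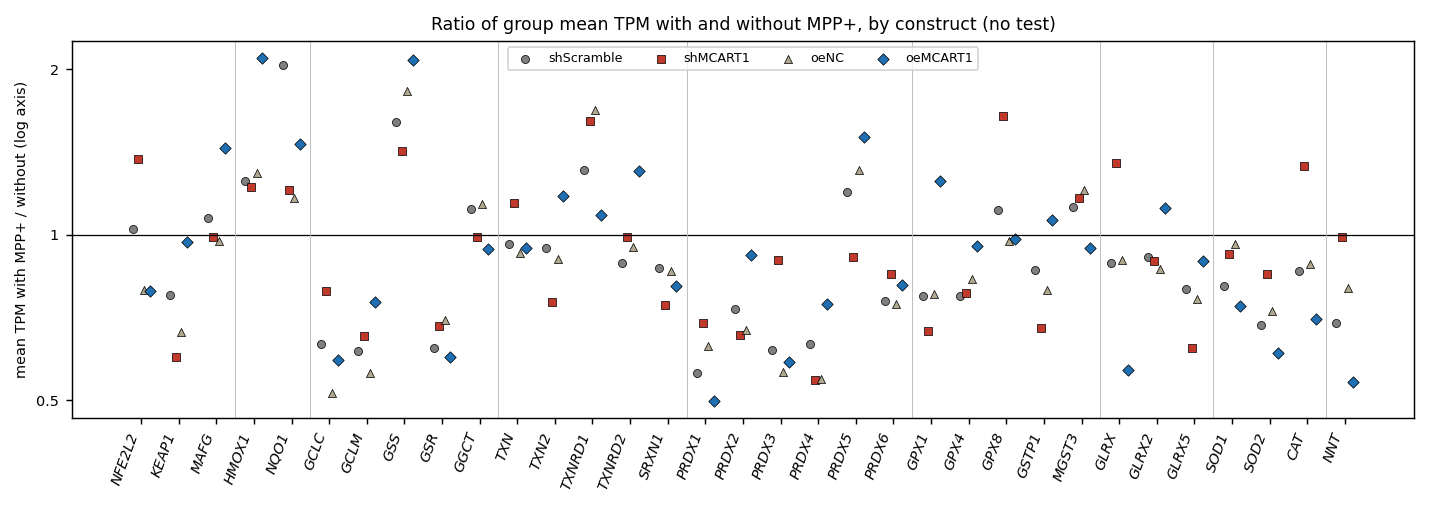
Ratio of group mean TPM with MPP+ to that without, on a log axis, for the 33 transcripts and 4 constructs (no test). NQO1 reached 2.03 in shScramble against 1.17 to 1.46 in the other constructs, HMOX1 2.10 in oeMCART1, and PRDX1 lay between 0.499 and 0.692.

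Genes around the set were counted in 6 lists, with medians given in the order untreated knockdown, untreated overexpression, knockdown with MPP+ and overexpression with MPP+, beside -0.15, 0.16, -0.08 and 0.26 for all genes and the percentages called given above. Of 9 NRF2 partners and regulators, 1 rose and 3 fell in untreated shMCART1, 4 rose and 3 fell in untreated oeMCART1, 2 rose and 2 fell in shMCART1 with MPP+, and 6 rose and 2 fell in oeMCART1 with MPP+ (medians -0.14, 0.22, -0.073 and 0.27). CUL3, the ligase scaffold that pairs with KEAP1, fell with the hairpin, from 37.9 ± 6.02 to 22.1 ± 5.501 TPM untreated (-0.77 ± 0.18 SE, adjusted p = 0.0157) and from 18.3 ± 2.11 to 9.67 ± 2.91 TPM with MPP+ (-0.89 ± 0.17 SE, adjusted p = 0.00242). It rose with overexpression, from 25.3 ± 4.04 to 52.6 ± 4.72 TPM untreated (1.03 ± 0.18 SE, adjusted p = 0.0041) and from 10.1 ± 0.947 to 28.6 ± 3.94 TPM with MPP+ (1.41 ± 0.17 SE, adjusted p = 2.38e-05). With GC trends removed the untreated knockdown change of CUL3 was -0.13 and not called. The CUL3 call ended in the untreated knockdown without shScramble replicate 2 (-0.65, adjusted p = 0.078). MAFF, another small MAF, rose in shMCART1 with MPP+ (1.13 ± 0.15 SE, adjusted p = 0.000392) and fell in oeMCART1 with MPP+ (-1.01 ± 0.15 SE, adjusted p = 0.000126), the reverse of NFE2L2. Of 19 tested among 20 other NRF2 targets, 4 rose and 3 fell, 4 and 5, 4 and 3, and 5 and 8 (medians 0.16, 0.00016, 0.03 and -0.14), so this list held both directions throughout. FTH1, the ferritin heavy chain, rose in oeMCART1 with MPP+ from 1324 ± 24.9 to 1957 ± 63.1 TPM (0.56 ± 0.04 SE, adjusted p = 7.96e-07), while TKT, of the pentose phosphate pathway, fell from 211 ± 11.6 to 116 ± 4.28 TPM (-0.86 ± 0.05 SE, adjusted p = 4.67e-07).

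SLC7A11 and CHAC2, in the list of cystine supply and glutathione breakdown, had the directions of GCLC under MPP+. Of 11 tested untreated and 10 with MPP+ among its 13 genes, 0 rose and 4 fell in untreated shMCART1 by limma, 5 rose and 3 fell in untreated oeMCART1, 1 rose and 5 fell in shMCART1 with MPP+, and 5 rose and 2 fell in oeMCART1 with MPP+ (medians 0.15, -0.15, -0.31 and 0.36). SLC7A11, the cystine importer, fell in shMCART1 with MPP+ from 3.403 ± 0.355 to 1.01 ± 0.104 TPM (-1.13 ± 0.11 SE, adjusted p = 6.83e-05) and rose in oeMCART1 with MPP+ from 1.63 ± 0.0819 to 5.83 ± 0.692 TPM (1.37 ± 0.11 SE, adjusted p = 1.88e-06). CHAC2, which degrades glutathione, had the same directions (-0.90 ± 0.09 SE, adjusted p = 8.49e-05 and 0.96 ± 0.09 SE, adjusted p = 4.72e-06). Both genes were called under every scaling and after GC removal in the MPP+ table. Of 14 tested among 16 NADPH supply genes, NNT included, 2 rose and 6 fell, 8 and 2, 2 and 6, and 7 and 3 (medians -0.37, 0.53, -0.14 and 0.31). ME2, the mitochondrial malic enzyme, fell in shMCART1 untreated (-1.09 ± 0.21 SE, adjusted p = 0.0139) and with MPP+ (-0.83 ± 0.08 SE, adjusted p = 5.9e-05) and rose in oeMCART1 in both tables (0.98 ± 0.21 SE, adjusted p = 0.00589 and 0.87 ± 0.08 SE, adjusted p = 3.34e-06), the untreated rise falling to 0.27 and not called with GC trends removed. The ME2 call ended in the untreated knockdown without shScramble replicate 2 (-0.98, adjusted p = 0.0743). IDH2, a mitochondrial source of NADPH, fell in oeMCART1 with MPP+ (-0.67 ± 0.06 SE, adjusted p = 2.6e-06). Of 11 genes for selenoprotein synthesis and methionine sulfoxide repair, 2 rose and 4 fell, 6 and 2, 0 and 4, and 7 and 0 (medians -0.26, 0.30, -0.16 and 0.49). SEPHS2, which makes the selenium donor that GPX1, GPX4 and the thioredoxin reductases require, fell in shMCART1 with MPP+ from 189.6 ± 3.28 to 97.6 ± 7.33 TPM (-0.95 ± 0.06 SE, adjusted p = 1.64e-05) and rose in oeMCART1 with MPP+ from 128 ± 9.73 to 209 ± 7.07 TPM (0.70 ± 0.06 SE, adjusted p = 3.77e-06). Of 12 glutathione transferases, GSTP1 and MGST3 among them, 1 rose and 1 fell, 4 and 4, 4 and 1, and 4 and 4 (medians 0.083, -0.13, 0.11 and -0.071), with GSTCD lower in shMCART1 (-0.53 ± 0.10 SE, adjusted p = 0.00229) and higher in oeMCART1 (1.13 ± 0.10 SE, adjusted p = 3.41e-06) with MPP+.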

How the data were processed

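RNA was sequenced in 24 libraries, and the authors deposited 1 table of untreated and 1 of MPP+ libraries, each with gene identifiers and TPM per library. The deposited values are TPM, per the file headers. The submitters' processing notes name GRCm38, mm10 and GRCh38 without saying which served which step. The aligner, annotation and strand setting were not given in the sources used here. TPM keeps no depth, so the number of reads behind a value is unknown and no counting interval is given. Entries without an identifier (25 and 42) were left out.

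Values were tested as log2(TPM + 1) with limma 3.58.1 (trended moderation, R 4.3.3) on genes that reached 1 TPM in 3 or more of a table's 12 libraries, its 4 groups in 1 model. Log2 changes of low genes are understated on that scale. The effect differences used genes present in both tables and 8 groups in 1 model. P-values were adjusted by Benjamini-Hochberg over all genes, and an adjusted p under 0.05 is a call. Sums, ratios, promoter searches and figures were made with pandas 2.3.3, numpy 2.4.6 and matplotlib 3.10.9 under python 3.11.15. The fit was tested on simulated data.

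The members and gene lists were chosen with earlier results of these data known. Every member may be named. Values of every library are given for 9 members and, per comparison, for up to 6 with the largest change among those called without overlap, and from each pathway list up to 3 genes with the smallest p. Of these pathway genes the text gives some, and these, the summed levels and the rank of PRDX1 were chosen after their values were seen.

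Libraries were placed in groups by their labels. The replicate numbers are shared by the groups, but deviations of same-numbered libraries from their group means correlated at -0.0729 to 0.211, not above 0.1 in every pair, so the numbers were not taken to pair them. Alternatives changed the pseudocount (0.1), the filter (none, or 5 TPM), the scaling (median of ratios, or quantiles) and the model (replicate block, library weights, or the compared groups alone), or left out each library. Another subtracted from each library a natural spline (5 degrees of freedom) of its values on GC content, taken as the median over a gene's transcripts in GENCODE.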

Additional observations from a re-analysis of the deposited data

Results flagged for a closer look

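The effect of a construct with MPP+ differed from its effect without MPP+ for 18 combinations of member and construct by the limma test of the difference itself (adjusted p under 0.05 over all genes), and each is listed here as the MPP+ effect minus the untreated effect on the log2 scale. For the hairpin the differences were -0.71 for NQO1, 0.58 for GLRX, -0.37 for KEAP1, -0.35 for GLRX5 and 0.30 for PRDX1. The hairpin effects on NQO1 and KEAP1 were not called untreated and were called negative with MPP+. Both scalings ended the KEAP1 call with MPP+. Its difference was lost under median-of-ratios scaling and without any of several single libraries.

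For overexpression HMOX1 (0.67), GPX1 (0.68), KEAP1 (0.54) and MAFG (0.52) had negative effects untreated and positive ones under MPP+ on the deposited scale. Median-of-ratios scaling left GPX1 (-0.74 and -0.16) and MAFG (-0.54 and -0.12) negative in both tables. With GC trends removed KEAP1 was positive in both (0.079 and 0.47). The untreated HMOX1 effect was not called, and median-of-ratios scaling ended its call under MPP+. PRDX4 (0.45) had a higher effect under MPP+ as well. PRDX2 (0.45), TXNRD2 (0.45), GSTP1 (0.42) and TXN2 (0.38) were called lower in oeMCART1 untreated and not called under MPP+. GLRX (-0.64) was called higher untreated and lower under MPP+. Its untreated call ended whichever library of the pair was left out, and the change turned negative with GC trends removed. SOD1 (-0.37), PRDX1 (-0.33) and MGST3 (-0.35) had lower effects under MPP+ than without it. The untreated and MPP+ libraries were deposited in separate tables, so treatment and table cannot be told apart in these differences, except that each effect is taken within its table.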

How the results depend on the processing

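Member counts moved as follows. In the untreated knockdown (18 called) they were 6 without a filter, 5 with GC trends removed, 29 with library weights and 0 with only the groups compared (20 at an unadjusted p under 0.05). In untreated overexpression (24) they were 12 with GC trends removed. In the knockdown difference (5) they were 2 under median-of-ratios scaling, 15 with library weights and 1 with only the groups compared. In the overexpression difference (13) they were 26 with library weights. All genes called in the untreated knockdown were 1272 of 32421 without a filter and 1240 of 14242 with GC trends removed. They were 10110 of 14703 with library weights and 0 with only the groups compared. Untreated overexpression had 2315 of 14242 genes called with GC trends removed. The knockdown difference had 656, 4619 and 118 of 15653 in the order above, and the overexpression difference 6160. Leaving out a library gave 0 to 23 members in the untreated knockdown and 18 to 23 in untreated overexpression. With MPP+ it gave 13 to 17 in the knockdown and 18 to 20 in overexpression. The knockdown and overexpression differences had 2 to 13 and 10 to 15. Over all genes these ranges were 2 to 7247, 4005 to 7696, 3413 to 4600, 8143 to 8707, 265 to 2466 and 2195 to 2828. A replicate block gave 23, 24, 18 and 21 members in the same order and 8 and 15 in the differences. All genes called with it were 6323, 7658, 4604 and 8990, and 923 and 2967 in the differences. Directions turned with GC trends removed in the untreated knockdown (TXN 0.13, GLRX 0.0082, GLRX2 0.32, GLRX5 0.13), untreated overexpression (KEAP1 0.079, GCLM -0.016, TXN -0.027, GLRX -0.23, CTH -0.16, MGST1 -0.25), the knockdown with MPP+ (TXN 0.076, GLRX2 0.019) and overexpression with MPP+ (NQO1 -0.036, GGCT -0.17, PRDX6 -0.36, GLRX2 -0.19, CAT -0.12). In the last they also turned under median-of-ratios scaling (MAFG -0.12, NQO1 -0.032, PRDX6 -0.22, GPX1 -0.16, SOD2 -0.12) and quantile normalization (MAFG -0.12, NQO1 -0.0060, SOD2 -0.010). The cause of these changes was not tested. Of all recomputed called changes of members and pathway genes, 2624 kept direction and call, 433 kept direction only and 25 turned. TPM keeps no depth, so the limit it sets is unknown.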
